A study of Homo sapiens with 8 samples.

Results

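Libraries labelled as a knockout of estrogen receptor beta (ERβ) that had received the ERβ5 isoform were compared with libraries labelled as the knockout alone. The comparison was defined by the library titles and used 4 of the 8 libraries of the series, 2 of the group called ERb5 here and 2 of the group called ERb_KO. All genes with enough reads entered it, which were 13915 of the 23228 genes listed. Every library is labelled as U87 MG, an established glioblastoma cell line kept in DMEM with fetal bovine serum, and was made from total RNA as single-end reads of 50 bases. By the labels, ERb_KO is the knockout of ERβ, described in the series' text as made by CRISPR/Cas9. ERb5 is labelled as that knockout with ERβ5 returned, so that by the labels both groups share the deletion. The other libraries are 2 of unmodified cells (control) and 2 of knockout cells given back the ERβ1 isoform (ERb1), and they were used for 2 further comparisons. The labels do not name the promoter of the returned isoform, do not say whether a line was a single clone and do not give an empty-vector control. They also do not say whether replicates were separate cultures, so the p-values measure the spread between these libraries, which may be technical.

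ERβ is a nuclear receptor encoded by ESR2 that binds estrogens and acts as a transcription factor. ERβ1 is the long isoform with a complete ligand-binding domain, and ERβ5 arises by alternative splicing of the last exons and has a shortened carboxy terminus. Several of the gene groups described here have well-known promoter elements. Type I interferons signal through a complex that holds STAT2 and IRF9 and binds the interferon-stimulated response element (ISRE) in front of antiviral genes. Genes used late in the cell cycle carry the cell cycle genes homology region (CHR), read by the DREAM and MYB-MuvB complexes, and replication genes carry E2F sites. ATF4 drives genes of amino acid supply when amino acids or protein folding are limiting.

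Promoter sequences are shown for members, picked for having it, that hold an element known for their gene group. Promoters of RefSeq (build GRCh38.p14) reaching from 250 bases before to 50 bases after the start were found for 10752 of the 13915 tested genes. The windows below are 80 bases long, lie in front of the start, read 5′ to 3′ in the direction of the gene, and have every match of the searched letters on either strand in capitals. The first set shows the ISRE core GAAANNGAA at 5 interferon genes that are described below or belong to the same list.
IFI27 (chr14:94110605-94110684, plus strand): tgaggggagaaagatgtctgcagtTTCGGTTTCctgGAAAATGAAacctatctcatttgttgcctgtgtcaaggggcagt
RTP4 (chr3:187368305-187368384, plus strand): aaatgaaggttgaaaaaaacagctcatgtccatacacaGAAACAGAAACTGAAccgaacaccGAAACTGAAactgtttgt
RSAD2 (chr2:6865770-6865849, plus strand): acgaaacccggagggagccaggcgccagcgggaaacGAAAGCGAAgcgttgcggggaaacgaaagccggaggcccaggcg
IFITM1 (chr11:313960-314039, plus strand): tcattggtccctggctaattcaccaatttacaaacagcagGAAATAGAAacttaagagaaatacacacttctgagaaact
IFIT3 (chr10:89327840-89327919, plus strand): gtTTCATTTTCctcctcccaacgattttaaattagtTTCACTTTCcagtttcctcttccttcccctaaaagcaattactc

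The second set shows the CHR, searched as TTTGAA or TTTAAA, at 4 genes of chromosome condensation and spindle function.
HMMR (chr5:163460552-163460631, plus strand): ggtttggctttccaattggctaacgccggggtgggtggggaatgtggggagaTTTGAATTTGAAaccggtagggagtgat
NCAPG (chr4:17810899-17810978, plus strand): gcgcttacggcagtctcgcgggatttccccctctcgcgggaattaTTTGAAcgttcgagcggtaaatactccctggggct
TOP2A (chr17:40418005-40418084, minus strand): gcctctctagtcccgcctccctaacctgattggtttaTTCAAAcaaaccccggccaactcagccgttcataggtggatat
KIF15 (chr3:44761714-44761793, plus strand): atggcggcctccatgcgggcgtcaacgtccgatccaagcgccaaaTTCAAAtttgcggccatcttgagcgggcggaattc

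The third set shows an ATF4-type element, searched as TGACGCAA, TGATGCAA, TGATGAAA or TTGCATCA, at 2 genes of amino acid and glutathione metabolism. The last of these strings is the reverse complement of TGATGCAA.
ASNS (chr7:97872433-97872512, minus strand): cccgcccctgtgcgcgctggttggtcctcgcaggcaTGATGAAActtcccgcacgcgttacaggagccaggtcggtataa
CHAC1 (chr15:40953226-40953305, plus strand): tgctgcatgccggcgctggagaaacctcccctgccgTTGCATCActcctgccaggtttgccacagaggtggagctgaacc

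Counted over both strands of the whole 300 bases, the ISRE core was in 22 of 29 matched interferon-stimulated effector genes (75.86%), against 6.35% of the promoters of all tested genes and 8.29% of all 27305 promoters in the table. The CHR was in 29 of 30 genes of mitotic motors, condensins and cytokinesis (96.67%) and in 14 of 26 kinetochore genes (53.85%), against 15.67% of tested genes. An E2F-type site (TTTCCCGC, TTTGGCGC or TTTCGCGC) was in 17 of 35 DNA replication genes (48.57%), against 4.48%. The ATF4-type element was in 6 of 13 cytosolic aminoacyl-tRNA synthetase genes (46.15%) and in 3 of 24 genes of the ATF4 list (12.5%), against 1.72%. A match describes these letters in this window and does not show binding.

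Between 26760897 and 48076414 reads per library were counted in genes, with 34449442 and 27513034 in ERb5 and 42655063 and 30429894 in ERb_KO. Replicates differed by more than sampling noise, and ERb5 had the widest gap between replicates (chi-square per degree of freedom 41.37, against 7.52 to 26.23 in the other groups). The labelled cell type was checked against marker genes. Of 20 luminal breast epithelium markers, 19 were at 10 CPM (counts scaled to a common library size) or more in every library, among them KRT8, KRT18, EPCAM and GATA3. Of 20 markers of mesenchymal glioma and U87 cells, 5 reached that level, and POSTN had no read in any library. GFAP, AQP4, S100B and 4 other astrocyte markers of 10 were under 1 CPM in every library. These marker levels did not match the labelled cell type, and the identity of the cells was not tested further. The label was kept as a name only.

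ESR2 (chr14:64550950-64804830, minus strand, on the GRCh37 build that the files use) was near the limit of detection in every library. It had 7 and 10 reads in ERb5, 23 and 21 in ERb_KO, 25 and 20 in control and 6 and 18 in ERb1. The ERb5 libraries were thus at 0.201 and 0.367 CPM and the ERb_KO libraries at 0.528 and 0.692 CPM, a log2 change of -1.11 ± 0.44 (SE) with edgeR adjusted p = 0.0761. ESR2 reads therefore did not mark the knockout or the return of an isoform, and the groups are called by their labels throughout. These are reads over the whole gene and do not tell its isoforms apart. ESR1, which encodes ERα, had 130 and 106 CPM in ERb5 and 141 and 130 CPM in ERb_KO (-0.20 ± 0.12, edgeR adjusted p = 0.21). GPER, the G protein-coupled estrogen receptor, rose from 2.41 and 2.04 CPM to 5.66 and 5.36 CPM (log2 change 1.30 ± 0.18, edgeR adjusted p = 0.00112). PGR, a classical estrogen target, had too few reads to be tested.

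The libraries labelled ERb5 and ERb_KO differed in many genes. With edgeR's quasi-likelihood test and an adjusted p under 0.05, 3922 of 13915 genes (28.2%) differed between ERb5 and ERb_KO, 2039 of them higher (14.7%) and 1883 lower (13.5%) in ERb5. These shares of all genes apply beside every list count of the main test below. They do not hold for the fits that leave out a library, which called other shares of all genes. The change was at least 2-fold for 283 of the higher and 264 of the lower genes. In these bulk libraries, fewer cells of a kind and less RNA per cell cannot be told apart. Genes of cell division, DNA replication, recombination repair and amino acid supply were lower in ERb5, and interferon, antigen presentation and a set of oxidative stress genes were higher. Against a minimum change of 1.5-fold, 127 genes (0.913%) were lower and 33 (0.237%) higher, so that 20.62% of the genes called by that test were higher, against 51.99% in the main test. The count was 1674 without ERb5 replicate 2, 1716 without ERb_KO replicate 2 and 1859 without ERb_KO replicate 1.

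**Figure D1:**
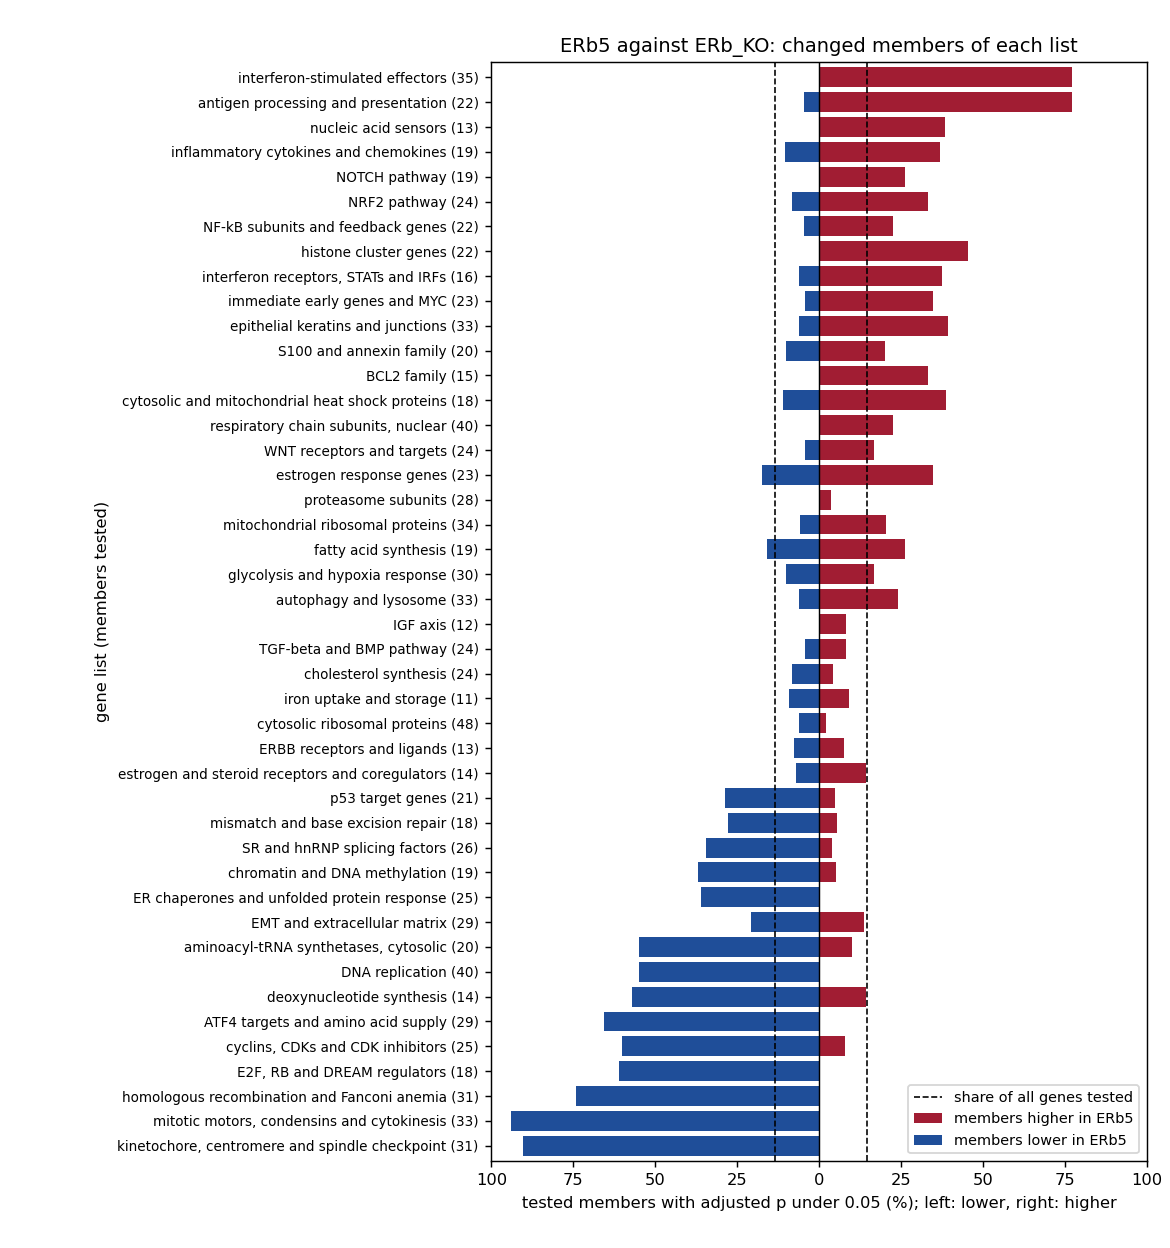
Share of tested members of each gene list (y axis, with the number tested) that were called higher (right) or lower (left) in ERb5 than in ERb_KO (x axis, percent), ordered by the median log2 change. The lists of cell type markers are not shown. The dashed lines give the shares over all genes, 14.7% higher and 13.5% lower; the 2 lists with the most negative medians had 28 of 31 and 31 of 33 members lower.

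Base composition moved with the comparison and is given beside the gene groups below. Log2 levels correlated with the GC content of the transcript at r = -0.545 and -0.451 in the ERb_KO libraries and at 0.115 and 0.329 in the ERb5 libraries, as deviations from the mean of all libraries over 13249 genes, which are not independent replicates. The median change was -0.38 in the genes of lowest GC content (median 36.8%) and 0.48 in those of highest GC content (64.1%). With each library's trend with GC content and length removed, 2519 genes (18.1%) were called, 8.87% of all genes higher and 9.23% lower, of which 1725 had also been called without that step.

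**Figure D2:**
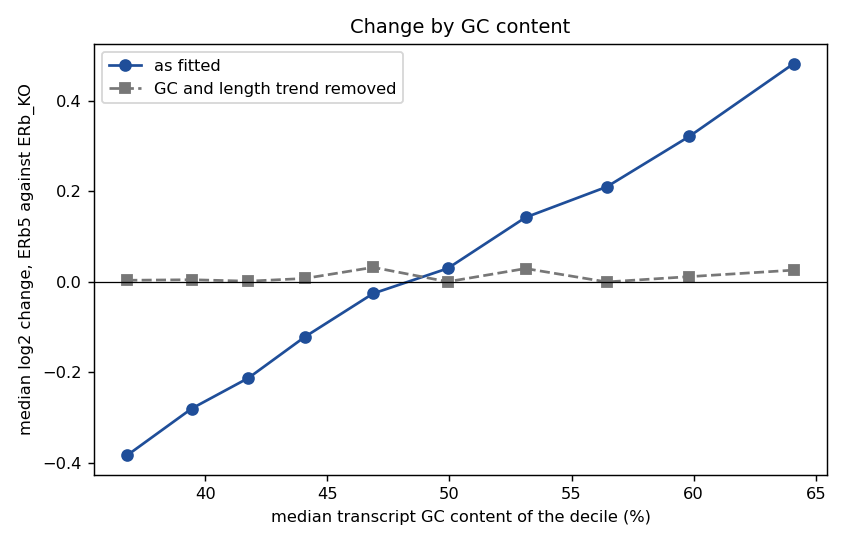
Median log2 change of ERb5 against ERb_KO (y axis) in 10 equal groups of genes ordered by transcript GC content (x axis, percent), as fitted (circles) and with the GC and length trend of each library removed (squares). The fitted medians climb from -0.38 to 0.48, and the corrected medians stay between -0.0002 and 0.032.

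Interferon-stimulated effector genes had the highest median change of the lists. Of 35 tested effectors, 27 were higher in ERb5 and none was lower, with a median log2 change of 1.13, against 14.7% of all genes higher and a median of 0.0084 over all genes. The median level of the list was 216 and 184 CPM in the ERb_KO libraries and 232 and 422 CPM in the ERb5 libraries. Values below are TMM-scaled CPM, given for replicate 1 and then replicate 2, with log2 changes ± SE and edgeR adjusted p.

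IFI27, an interferon-induced mitochondrial protein, had 16.6 and 20.1 CPM in ERb_KO and 41.1 and 139 CPM in ERb5 (2.30 ± 0.45, edgeR adjusted p = 0.0078). RSAD2 encodes viperin, an enzyme that makes a chain-terminating nucleotide against viruses, and had 109 and 87.6 CPM in ERb_KO and 188 and 508 CPM in ERb5 (1.82 ± 0.38, edgeR adjusted p = 0.00989). OASL, a member of the oligoadenylate synthetase family, went from 182 and 140 CPM to 307 and 910 CPM (1.92 ± 0.40, edgeR adjusted p = 0.00983). For each of these genes both ERb5 libraries lay above both ERb_KO libraries, and replicate 2 was the highest. The naming rule required that separation of the largest rises, so it is no separate result. RTP4, a chaperone of receptor transport that is induced by interferon, had 7.6 and 6.72 CPM in ERb_KO and 12.8 and 39.8 CPM in ERb5 (1.86 ± 0.42, edgeR adjusted p = 0.0133). BATF2, an interferon-induced transcription factor, had 20.3 and 14.7 CPM in ERb_KO and 33 and 99.8 CPM in ERb5 (1.92 ± 0.42, edgeR adjusted p = 0.0119). The windows printed above for IFI27 and RTP4 hold 2 and 3 matches of the ISRE core, and the window of RSAD2 holds 1. Among the most abundant members, IFI6 went from 1207 and 1466 CPM to 2469 and 4390 CPM (1.36 ± 0.23, edgeR adjusted p = 0.00413), and OAS3 from 1716 and 1280 CPM to 2037 and 2981 CPM (0.74 ± 0.17, edgeR adjusted p = 0.0115).

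**Figure D3:**
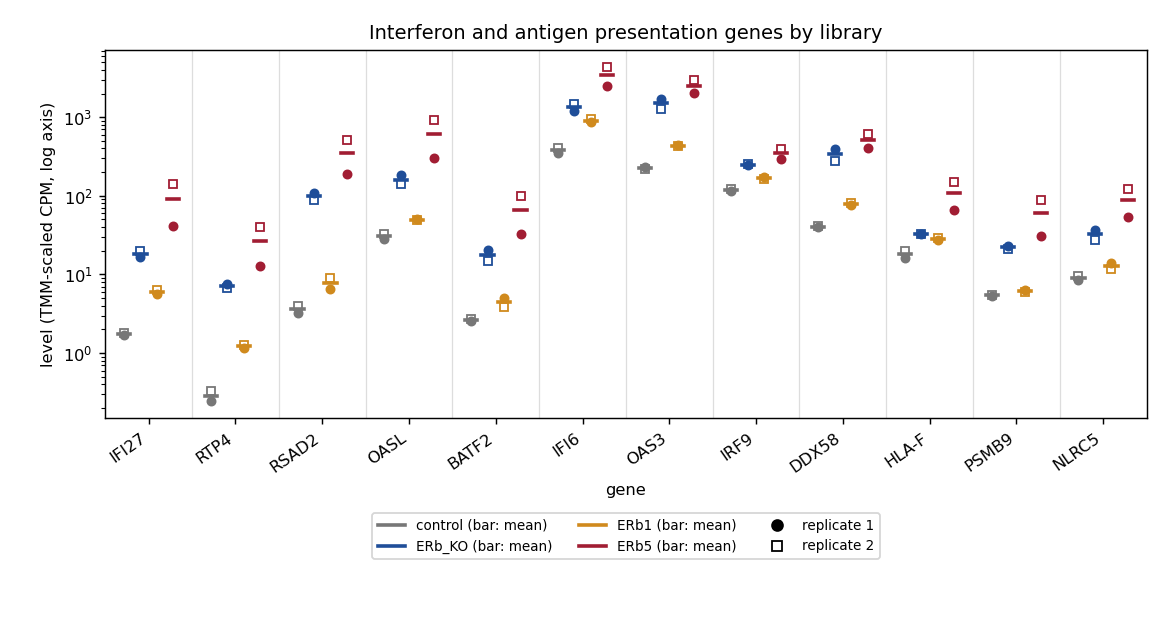
Level of 12 interferon and antigen presentation genes (y axis, TMM-scaled CPM on a log axis) in each of the 8 libraries, with circles for replicate 1, squares for replicate 2 and bars for group means. In ERb5, replicate 2 lies above replicate 1 for every gene shown (RSAD2 508 against 188 CPM), and the ERb_KO libraries lie above the control and ERb1 libraries.

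The count of effectors called depended on the test and the libraries used. Against a minimum change of 1.5-fold, 3 of the 35 effectors were higher, where 0.237% of all genes were. IFI27, RSAD2, OASL, RTP4, BATF2, IFI6 and OAS3 were not called in that test. Without ERb5 replicate 2, 19 of the 35 effectors were higher with a median of 0.53, where 5.78% of all genes were. Without ERb_KO replicate 2 it was 5 (6.7% of all genes) with a median of 1.08, and without ERb_KO replicate 1 it was 13 (5.94%) with a median of 1.24, so that calls were lost while the medians stayed near 1.13. The calls of IFI27, RSAD2, OASL, RTP4 and BATF2 were lost in both of those fits and in a fit of the 4 libraries alone, which called 9 effectors where 9.38% of all genes were higher. The log2 change of IFI27 was 2.44 without ERb_KO replicate 2 and 2.16 without ERb_KO replicate 1. With the GC trend removed, 23 were higher with a median of 1.10, against 8.87% of all genes, and BATF2 was not called. OAS3 lost its call without ERb5 replicate 2 and without ERb_KO replicate 2.

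Components upstream of these genes were divided between called and uncalled members. Of 16 interferon receptors, STATs and IRFs, 6 were higher and 1 was lower. STAT2, a subunit of the ISRE-binding complex, had 177 and 133 CPM in ERb_KO and 210 and 334 CPM in ERb5 (0.81 ± 0.21, edgeR adjusted p = 0.0202). IRF9, its DNA-binding partner, had 244 and 255 CPM against 294 and 398 CPM (0.47 ± 0.13, edgeR adjusted p = 0.0209). Of 13 nucleic acid sensors 5 were higher and none was lower. They included DDX58, the RNA sensor RIG-I, with 400 and 273 CPM in ERb_KO and 407 and 604 CPM in ERb5 (0.59 ± 0.20, edgeR adjusted p = 0.0491), and TMEM173, the adaptor STING, with 10.3 and 9.16 CPM against 15.1 and 16 CPM (0.67 ± 0.15, edgeR adjusted p = 0.00895). For DDX58 replicate 1 of ERb5 was close to replicate 1 of ERb_KO. Every call in both lists, those of STAT2, IRF9, DDX58 and TMEM173 among them, was lost without ERb_KO replicate 2. The list medians were then 0.21 and 0.31, against 0.29 and 0.415 in the main fit. Without ERb5 replicate 2 the medians were 0.15 and 0.24, and STAT2, IRF9 and DDX58 lost their calls. With the GC trend removed 2 and 3 members were higher.

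Antigen processing and presentation genes were higher as well. Of 22 tested members 17 were higher and 1 was lower, with a median log2 change of 0.92. PSMB9, an inducible subunit of the immunoproteasome, had 22.9 and 21.1 CPM in ERb_KO and 31.1 and 89.5 CPM in ERb5 (1.45 ± 0.38, edgeR adjusted p = 0.0219). NLRC5, the transactivator of MHC class I genes, had 37 and 27.8 CPM against 53.7 and 122 CPM (1.43 ± 0.32, edgeR adjusted p = 0.0126). HLA-F, a nonclassical class I gene, had 33.1 and 32.9 CPM against 66.1 and 150 CPM (1.71 ± 0.30, edgeR adjusted p = 0.00564). For each of these genes replicate 2 of ERb5 was far above replicate 1. HLA-G had the largest fitted rise among the 13915 tested genes (5.74 ± 1.36, edgeR adjusted p = 0.0159), from 0.0688 and 0.198 CPM to 4.19 and 9.41 CPM. Its call was lost when any 1 of these 4 libraries was left out, a control library had 2.4 CPM against 0.146 CPM in the other, and reads of near-identical HLA genes may be split between them. With the GC trend removed 11 members were higher, and PSMB9 and NLRC5 were not called, with log2 changes of 1.499 and 1.17. Without ERb5 replicate 2 there were 10, and without either ERb_KO library 3, when HLA-F and PSMB9 also lost their calls.

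Secreted signals and NF-κB feedback genes were mixed. Of 19 inflammatory cytokines and chemokines 7 were higher and 2 lower, and of 22 NF-κB genes 5 were higher and 1 lower. TNFSF10, the death ligand TRAIL, had 19.4 and 17.1 CPM in ERb_KO and 29.3 and 60.1 CPM in ERb5 (1.29 ± 0.27, edgeR adjusted p = 0.00875). CCL20, a chemokine for CCR6-bearing cells, had 2.16 and 2.7 CPM against 4.19 and 7.13 CPM (1.22 ± 0.31, edgeR adjusted p = 0.0152). TNFAIP3, the NF-κB inhibitor A20, had 10.3 and 9.62 CPM against 14.7 and 25.3 CPM (1.00 ± 0.21, edgeR adjusted p = 0.00783). The calls of CCL20 and TNFAIP3 were lost without ERb5 replicate 2, and that of TNFSF10 without ERb_KO replicate 2. Without ERb5 replicate 2, or without ERb_KO replicate 2, 1 member of each list was higher.

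The interferon lists also differed between ERb5 and ERb1. The difference of the isoforms' changes from the knockout equals the direct comparison of ERb5 with ERb1, which called 649 of 13915 genes (4.66%), 485 higher (3.49%) and 164 lower (1.18%) in ERb5. All 35 tested interferon effectors were higher in ERb5 than in ERb1, with a median log2 difference of 2.64. RSAD2 was at 6.46 and 9.03 CPM in the ERb1 libraries, so that the ERb5 libraries were higher by 5.47 on the log2 scale (edgeR adjusted p = 0.000392). RTP4 was at 1.16 and 1.26 CPM in ERb1 (4.41, edgeR adjusted p = 0.00166) and IFI27 at 5.67 and 6.28 CPM (3.91, edgeR adjusted p = 0.00251). The lists also had 15 of 22 antigen presentation genes, 9 of 13 sensors and 10 of 19 cytokines and chemokines higher, and none lower. Against ERb_KO, the effectors' median was 1.13 in ERb5 and -1.69 in ERb1, and against control ERb_KO had a median of 2.40. The ERb5 libraries were also above control, with all 35 effectors higher and a median of 3.48, where 6.85% of all genes were higher. RSAD2 had 3.26 and 3.99 CPM in control. These comparisons share libraries, so their values are set side by side only.

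Cell division genes had the most negative medians of the lists. Of 33 tested genes of mitotic motors, condensins and cytokinesis 31 were lower in ERb5 and none was higher, with a median log2 change of -1.11, and of 31 kinetochore, centromere and spindle checkpoint genes 28 were lower and none higher, with a median of -1.12. Over all genes 13.5% were lower. TOP2A (chr17:38544777-38574148 on GRCh37, minus strand), the topoisomerase that untangles chromosomes, had 237 and 197 CPM in ERb_KO and 62 and 61.6 CPM in ERb5 (-1.81 ± 0.14, edgeR adjusted p = 0.000133). KIF2C, a kinesin that corrects microtubule attachment, had 80.2 and 80.4 CPM against 18.3 and 26.2 CPM (-1.86 ± 0.15, edgeR adjusted p = 0.000133). NCAPG, a condensin subunit, had 24.8 and 22.5 CPM against 5.08 and 7.13 CPM (-1.96 ± 0.21, edgeR adjusted p = 0.000251). HMMR, a spindle-associated protein, had 55.6 and 48.4 CPM against 11.3 and 14 CPM (-2.05 ± 0.25, edgeR adjusted p = 0.000822). In each case the gap between the 2 groups was wider than that between replicates, and the printed promoters of TOP2A, NCAPG and HMMR each hold the CHR. NCAPG and HMMR were named by a rule that required no overlap between the groups.

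At the kinetochore, the NDC80 complex subunit NUF2 had 57.7 and 53.1 CPM in ERb_KO and 12.2 and 14.2 CPM in ERb5 (-2.07 ± 0.21, edgeR adjusted p = 0.000231). Its partner SPC25 had 16.2 and 12.4 CPM against 3.25 and 3.93 CPM (it fell by 2.00 ± 0.21 on the log2 scale, edgeR adjusted p = 0.000238). SKA1, of the complex that holds microtubule ends, had 7.39 and 8.27 CPM against 1.29 and 1.87 CPM (-2.32 ± 0.28, edgeR adjusted p = 0.00047). CENPK, of the constitutive centromere network, had 15.4 and 15.4 CPM against 3.88 and 4.37 CPM (-1.91 ± 0.17, edgeR adjusted p = 0.000133). The 2 most abundant members of the list fell by less than these. BUB3, a spindle checkpoint protein, had 226 and 243 CPM against 154 and 165 CPM (-0.56 ± 0.10, edgeR adjusted p = 0.00359), and SKA2 had 251 and 245 CPM against 152 and 148 CPM (-0.73 ± 0.12, edgeR adjusted p = 0.00291).

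Leaving out each ERb5 and ERb_KO library in turn left 26 to 31 of the 33 motor and condensin genes and 26 to 28 of the 31 kinetochore genes lower. Of all genes, 14.5% were then lower without ERb5 replicate 1, 6.02% without ERb5 replicate 2, 7.17% without ERb_KO replicate 1 and 5.37% without ERb_KO replicate 2. With the GC trend removed, 30 and 28 were lower, against 9.23% of all genes, with medians of -0.93 and -0.89. TOP2A, KIF2C, NCAPG, HMMR, NUF2, SPC25, SKA1 and CENPK were called under every alternative counted, the test against a minimum change of 1.5-fold included. Here and below, the alternatives counted for single genes do not include the fits without a control or ERb1 library.

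**Figure D4:**
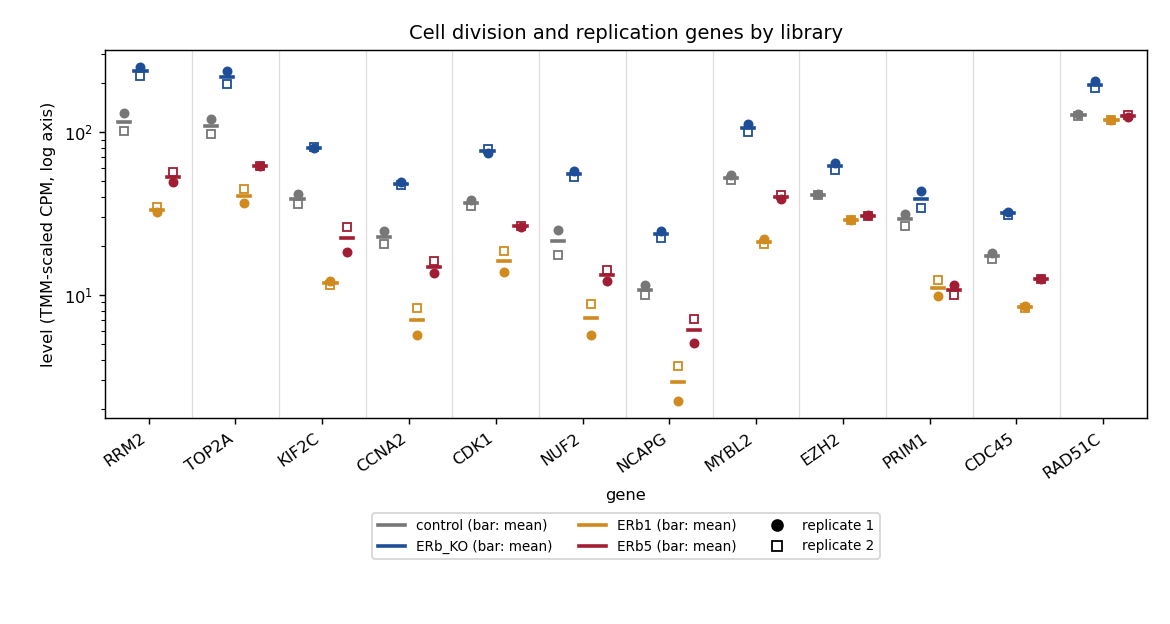
Level of 12 cell division and replication genes (y axis, TMM-scaled CPM on a log axis) in each library, with circles for replicate 1, squares for replicate 2 and bars for group means. The ERb_KO libraries are the highest for every gene shown; TOP2A stood at 237 and 197 CPM there, at 62 and 61.6 CPM in ERb5, and at 36.5 and 44.6 CPM in ERb1.

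The regulators of the cycle followed in part. Of 25 cyclins, CDKs and CDK inhibitors 15 were lower and 2 higher, and of 18 E2F, RB and DREAM genes 11 were lower and none was higher. CCNA2, the S and G2 phase cyclin, had 49 and 47 CPM in ERb_KO and 13.5 and 16.2 CPM in ERb5 (-1.69 ± 0.17, edgeR adjusted p = 0.000231). CDK1, the mitotic kinase, had 74 and 78.8 CPM against 26.3 and 26.5 CPM (-1.54 ± 0.13, edgeR adjusted p = 0.000133). MYBL2, the transcription factor B-MYB, had 112 and 99.7 CPM against 38.9 and 41.1 CPM (-1.40 ± 0.11, edgeR adjusted p = 0.000133). CCND1, the G1 cyclin, went the other way, from 441 and 391 CPM to 658 and 537 CPM (0.52 ± 0.12, edgeR adjusted p = 0.0092), a call lost without ERb_KO replicate 2. The CDK inhibitor CDKN1A had 565 and 509 CPM against 389 and 508 CPM (-0.26 ± 0.19, edgeR adjusted p = 0.323). CDKN1B fell from 159 and 213 CPM to 97.4 and 108 CPM (-0.85 ± 0.18, edgeR adjusted p = 0.00903), a call lost without ERb_KO replicate 2 and with the GC trend removed. MYC had 107 and 113 CPM against 108 and 107 CPM. E2F4 and RBL2, the abundant members of the DREAM group, also did not pass the test, with log2 changes of 0.08 ± 0.12 and 0.05 ± 0.11.

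Replication and repair genes fell over a wider range. Of 40 DNA replication genes 22 were lower and none was higher (median -0.46), of 14 genes of deoxynucleotide synthesis 8 were lower and 2 higher, and of 31 genes of homologous recombination and Fanconi anemia 23 were lower and none higher (median -0.72). RRM2 (chr2:10260825-10351851 on GRCh37, plus strand), the regulated subunit of ribonucleotide reductase, had 252 and 220 CPM in ERb_KO and 49.5 and 57.1 CPM in ERb5 (-2.15 ± 0.14, edgeR adjusted p = 5.83e-05). PRIM1, the catalytic primase subunit, had 43.2 and 34.3 CPM against 11.5 and 10 CPM (-1.85 ± 0.17, edgeR adjusted p = 0.000133). CDC45, a part of the replicative helicase, had 32.5 and 31 CPM against 12.4 and 12.6 CPM (-1.34 ± 0.12, edgeR adjusted p = 0.000133). TYMS, thymidylate synthase, had 81.7 and 72.7 CPM against 30.5 and 30.8 CPM (-1.33 ± 0.12, edgeR adjusted p = 0.000133). By contrast, the helicase subunit MCM3 had 178 and 141 CPM against 185 and 159 CPM, and the single-strand binding protein RPA1 147 and 142 CPM against 185 and 158 CPM, and neither passed the test. Among repair genes, the exonuclease EXO1 had 13.9 and 9.65 CPM against 3.73 and 4 CPM (-1.61 ± 0.22, edgeR adjusted p = 0.000804), and RAD51C had 206 and 185 CPM against 125 and 127 CPM (-0.64 ± 0.09, edgeR adjusted p = 0.00135). The recombination list had 16 to 23 lower members and the replication list 13 to 21 when each ERb5 and ERb_KO library was left out in turn, the lowest replication count being without ERb_KO replicate 1. Of the deoxynucleotide synthesis genes 5 were lower without ERb5 replicate 2.

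Chromatin and splicing genes also had members that fell, with 7 of 19 chromatin and DNA methylation genes lower and 1 higher, and 9 of 26 splicing factors lower and 1 higher. Over all genes the share lower was 13.5%. When each ERb5 and ERb_KO library was left out in turn, the chromatin median ran from -0.30 to -0.14 and the splicing median from -0.23 to -0.15. In some of these fits fewer members of both lists were called lower, as were fewer of all genes. With the GC trend removed, 2 splicing factors were lower, where 9.23% of all genes were. EZH2, the histone H3 lysine methyltransferase of Polycomb, had 64.5 and 58.9 CPM in ERb_KO and 30.8 and 30.6 CPM in ERb5 (-1.01 ± 0.10, edgeR adjusted p = 0.000231). ATAD2, a bromodomain protein, had 198 and 152 CPM against 87.2 and 70.3 CPM (-1.15 ± 0.15, edgeR adjusted p = 0.000696). Histone cluster genes moved the other way, with 10 of 22 higher and none lower, where 14.7% of all genes were higher. HIST1H2BC, an H2B gene, had 5.19 and 6.23 CPM against 11.5 and 15.4 CPM (1.24 ± 0.20, edgeR adjusted p = 0.00257). The histone median was 0.33, and 0.17 to 0.62 when each ERb5 and ERb_KO library was left out in turn. Fewer histone genes, and fewer of all genes, were called higher without ERb5 replicate 2 or without ERb_KO replicate 1. Histone copies are near-identical, so their counts are uncertain.

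The division genes of ERb5, lower than in the knockout, were in part higher than in ERb1. Against ERb1, 20 of the 33 motor and condensin genes and 12 of the 31 kinetochore genes were higher in ERb5 and none was lower, with medians of 0.74 and 0.63, where 3.49% of all genes were higher. CCNA2 had 5.67 and 8.24 CPM in ERb1 (1.07 higher in ERb5 on the log2 scale, edgeR adjusted p = 0.00554), and MYBL2 had 22 and 20.5 CPM (0.92, edgeR adjusted p = 0.000751). PRIM1 and TYMS did not pass that test, with log2 differences of -0.04 and 0.04. Against control, 10 of 33 and 4 of 31 were lower in ERb5, with medians of -0.35 and -0.27, where 6.31% of all genes were lower. RRM2 had 131 and 101 CPM in control (-1.12 in ERb5, edgeR adjusted p = 0.000369), and CDK1 had 38.4 and 35.1 CPM (-0.48, edgeR adjusted p = 0.0358). The median change from control of the ERb_KO libraries in these lists was 0.81 and 0.83.

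Genes of amino acid supply were lower in ERb5. Of 29 ATF4 targets and amino acid supply genes 19 were lower and none was higher, with a median of -0.56, and of 20 cytosolic aminoacyl-tRNA synthetases 11 were lower and 2 higher, with a median of -0.39. MTHFD2, a mitochondrial folate enzyme, had 377 and 484 CPM in ERb_KO and 175 and 191 CPM in ERb5 (-1.23 ± 0.15, edgeR adjusted p = 0.000412). ALDH1L2, another mitochondrial folate enzyme, had 232 and 219 CPM against 98 and 98.5 CPM (-1.20 ± 0.10, edgeR adjusted p = 0.000133). ASNS, asparagine synthetase, had 583 and 608 CPM against 264 and 327 CPM (-1.01 ± 0.12, edgeR adjusted p = 0.000468). SLC7A11, the cystine transporter, had 258 and 256 CPM against 127 and 131 CPM (-0.99 ± 0.14, edgeR adjusted p = 0.000945). For each of the 4, both ERb5 libraries were below both ERb_KO libraries, as they were for 33.3% of all genes. Seryl-tRNA synthetase (SARS) had 655 and 684 CPM against 351 and 378 CPM (-0.88 ± 0.09, edgeR adjusted p = 0.000243). The highly expressed amino acid transporter SLC1A5 had 987 and 1082 CPM against 804 and 927 CPM (-0.26 ± 0.11, edgeR adjusted p = 0.0899). With the GC trend removed, 24 of the 29 and 10 of the 20 were lower, where 9.23% of all genes were. Against ERb1, 1 member of each list was lower and none higher, and against control 12 and 7 were lower. Of all genes, 1.18% were lower against ERb1 and 6.31% against control.

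Endoplasmic reticulum chaperone and unfolded protein response genes had 9 of 25 lower and none higher, where 13.5% of all genes were lower. ATF6, a stress sensor of the endoplasmic reticulum, had 326 and 328 CPM in ERb_KO and 205 and 186 CPM in ERb5 (-0.74 ± 0.10, edgeR adjusted p = 0.000696). ERN1, the sensor IRE1α, had 71.8 and 77.2 CPM against 40.8 and 43.3 CPM (-0.83 ± 0.13, edgeR adjusted p = 0.00217). The chaperone HSPA5 had 1792 and 2938 CPM against 1758 and 1448 CPM and did not pass the test (-0.56 ± 0.19, edgeR adjusted p = 0.0507), and the ERb_KO libraries were far apart. The list median was -0.32, and -0.40 to -0.19 when each ERb5 and ERb_KO library was left out in turn. Fewer members, and fewer of all genes, were called lower without ERb_KO replicate 2 or without ERb5 replicate 2. Without ERb_KO replicate 2 some members were called higher. Against control, 18 of the 25 were lower in ERb5, with a median of -0.74, where 6.31% of all genes were lower.

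Oxidative stress genes of the NRF2 pathway were divided. Of 24 tested members 8 were higher and 2 lower, with a median of 0.35. HMOX1 (chr22:35776354-35790207 on GRCh37, plus strand), the heme-degrading enzyme, had 68 and 99.6 CPM in ERb_KO and 178 and 335 CPM in ERb5 (1.62 ± 0.27, edgeR adjusted p = 0.00446). OSGIN1, an oxidative stress-induced growth inhibitor, had 35 and 41.2 CPM against 68.1 and 117 CPM (1.28 ± 0.21, edgeR adjusted p = 0.0033). AKR1C2, an aldo-keto reductase, had 11.9 and 16.8 CPM against 26.2 and 49.6 CPM (1.41 ± 0.27, edgeR adjusted p = 0.00689), although reads of its near-identical family members make the level uncertain. The ferritin heavy chain FTH1 had 1643 and 1911 CPM against 1650 and 2268 CPM and did not pass (0.14 ± 0.14, edgeR adjusted p = 0.468). Replicate 2 of ERb5 was again above replicate 1. The list median ran from 0.16 to 0.51 when each ERb5 and ERb_KO library was left out in turn. Without ERb5 replicate 2 fewer members and fewer of all genes were called higher, and without ERb5 replicate 1 more of both were. Against ERb1, 9 of 24 were higher in ERb5 and none was lower, with HMOX1 at 27.8 and 31.5 CPM in ERb1 (3.11, edgeR adjusted p = 0.00057) and AKR1C2 at 2.97 and 3.53 CPM (3.52, edgeR adjusted p = 0.000377).

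**Figure D5:**
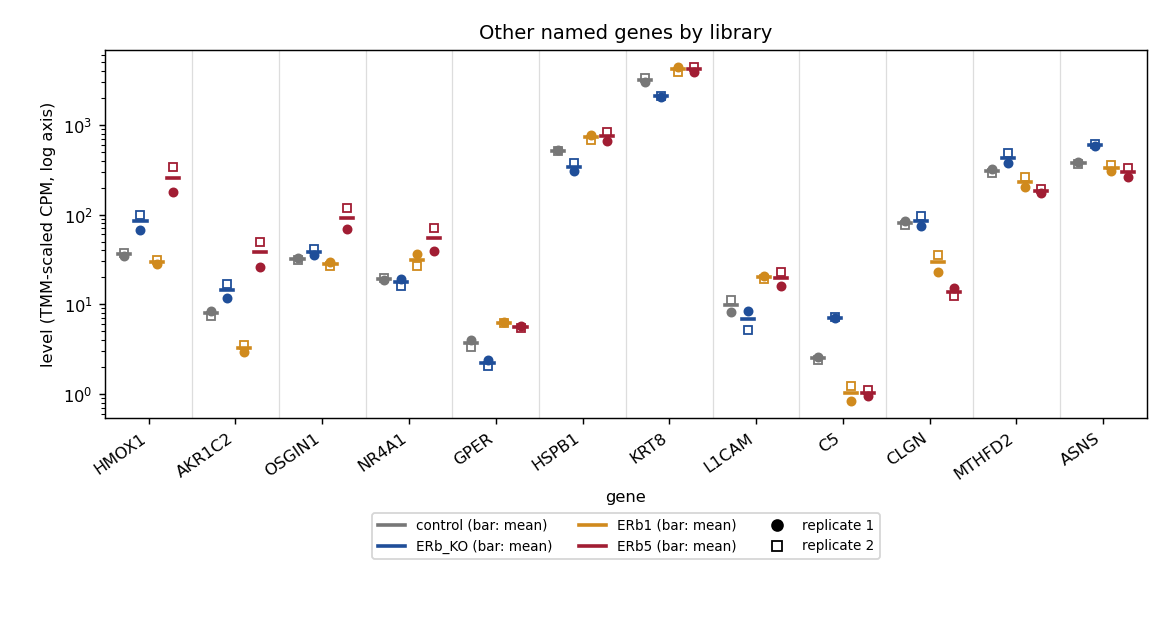
Level of 12 further genes (y axis, TMM-scaled CPM on a log axis) in each library, with circles for replicate 1, squares for replicate 2 and bars for group means. C5 and CLGN stand at 1.1 and 12.3 CPM in ERb5 replicate 2, against 7.15 and 96.7 CPM in ERb_KO replicate 2; HMOX1, AKR1C2 and OSGIN1 are highest in ERb5.

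Heat shock genes had 7 of 18 higher and 2 lower, where 14.7% of all genes were higher and 13.5% lower. HSPB1, the small heat shock protein HSP27, had 303 and 377 CPM in ERb_KO and 657 and 835 CPM in ERb5 (1.13 ± 0.14, edgeR adjusted p = 0.000512), and its level in ERb1 was 773 and 682 CPM (log2 difference 0.04, edgeR adjusted p = 0.925). BAG3, a co-chaperone of protein quality control, had 101 and 93.9 CPM against 153 and 183 CPM (0.79 ± 0.12, edgeR adjusted p = 0.0018). HSPB1 was called under every alternative. The list median ran from 0.15 to 0.255 when each ERb5 and ERb_KO library was left out in turn. Without ERb5 replicate 2 fewer members were called higher, as were fewer of all genes. The immediate early gene list had 8 of 23 higher and 1 lower, beside the same shares of all genes. It was led by the orphan nuclear receptor NR4A1 with 19.3 and 15.9 CPM against 38.9 and 70.1 CPM (1.62 ± 0.26, edgeR adjusted p = 0.00323). With the GC trend removed 4 immediate early genes were higher, where 8.87% of all genes were. Their median was 0.27, and 0.08 to 0.46 when each ERb5 and ERb_KO library was left out in turn. Fewer of them, and fewer of all genes, were called higher without ERb5 replicate 2 or without ERb_KO replicate 2.

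Epithelial genes changed in both directions, more of them upward. Of 33 keratin and junction genes 13 were higher and 2 lower, with a median of 0.27. KRT8, a keratin of simple epithelia, had 2057 and 2113 CPM in ERb_KO and 3865 and 4425 CPM in ERb5 (0.99 ± 0.12, edgeR adjusted p = 0.00037). KRT19 had 589 and 663 CPM against 1091 and 1147 CPM (0.84 ± 0.11, edgeR adjusted p = 0.000782). ESRP1, an epithelial splicing factor, fell from 362 and 418 CPM to 240 and 217 CPM (-0.77 ± 0.11, edgeR adjusted p = 0.00112). The list has a median GC content of 56.2%, and with the GC trend removed 8 members were higher and 2 lower, with a median of 0.12. Of all genes, 8.87% were then higher and 9.23% lower. The list median ran from 0.20 to 0.35 when each ERb5 and ERb_KO library was left out in turn. Without ERb5 replicate 2 fewer members were called higher, as were fewer of all genes. KRT8 had 4453 and 3890 CPM in ERb1 (log2 difference -0.01, edgeR adjusted p = 0.978). Of 17 tested mesenchymal glioma and U87 markers 8 were lower and 1 higher, the higher one being TIMP1 (0.63, edgeR adjusted p = 0.00792). The median level of this list was low, at 2.46 and 2.14 CPM in ERb_KO and 0.833 and 1.03 CPM in ERb5. FN1, fibronectin, had 175 and 130 CPM against 77.1 and 75.5 CPM (it fell by 1.00 ± 0.14 on the log2 scale, edgeR adjusted p = 0.00106). VIM, vimentin, had 7.85 and 8.66 CPM against 2.59 and 4.37 CPM (-1.26 ± 0.28, edgeR adjusted p = 0.0102). The VIM call was lost without ERb_KO replicate 2. The list had 4 lower members without ERb5 replicate 1 or without ERb_KO replicate 2, and 6 without ERb5 replicate 2 or without ERb_KO replicate 1. The adhesion molecule L1CAM rose from 8.33 and 5.2 CPM to 16.1 and 23.1 CPM (1.51 ± 0.24, edgeR adjusted p = 0.0023). The summed level of the luminal markers ran from 15120 to 15321 CPM in ERb_KO and from 18830 to 19807 CPM in ERb5, and its part in these results was not tested. For the mesenchymal glioma and U87 markers the summed level ran from 718 to 816 CPM in ERb_KO and from 732 to 762 CPM in ERb5.

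Estrogen-related lists held calls in both directions. Of 23 estrogen response genes 8 were higher and 4 lower, and of 14 steroid receptors and coregulators 2 were higher and 1 lower, against 14.7% and 13.5% of all genes. The median of the estrogen response genes was 0.16, and 0.08 to 0.34 when each ERb5 and ERb_KO library was left out in turn. Fewer of them, and fewer of all genes, were called higher without ERb5 replicate 2 or without ERb_KO replicate 2. RARA, the retinoic acid receptor α, had 35.8 and 35.1 CPM in ERb_KO and 62.3 and 69.7 CPM in ERb5 (0.90 ± 0.11, edgeR adjusted p = 0.000433). NRIP1, a nuclear receptor corepressor, had 87.7 and 86.8 CPM against 67.8 and 66.3 CPM (-0.38 ± 0.10, edgeR adjusted p = 0.0173), a call lost with the GC trend removed. GPER was called under every alternative and had 6.27 and 6.2 CPM in ERb1 and 4.04 and 3.36 CPM in control. The growth factor lists had few calls, with 1 higher and 1 lower of 13 ERBB receptors and ligands, and 1 higher of 12 IGF axis genes. EGFR had 7.48 and 5.9 CPM against 5.89 and 6.21 CPM and did not pass the test.

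Genes outside the lists were also among the largest changes. C5, complement component C5 (chr9:123695265-123837473 on GRCh37, minus strand), had 7.07 and 7.15 CPM in ERb_KO and 0.948 and 1.1 CPM in ERb5, the largest fall by the naming rule (-2.80 ± 0.22, edgeR adjusted p = 0.000133). CLGN, calmegin, a chaperone of the endoplasmic reticulum best known from the testis, had 74.3 and 96.7 CPM against 15 and 12.3 CPM (-2.64 ± 0.21, edgeR adjusted p = 0.000133). MND1, a meiotic recombination factor, had 13.5 and 12.6 CPM against 1.81 and 3.86 CPM (-2.23 ± 0.27, edgeR adjusted p = 0.000465). Each was called under every alternative. CLGN was lower in ERb5 than in ERb1 as well (23 and 35.7 CPM, log2 difference -1.11, edgeR adjusted p = 0.0115) and lower than in control (84.1 and 76.7 CPM, -2.55, edgeR adjusted p = 4.99e-05). C5 was at 0.826 and 1.22 CPM in ERb1 and did not pass that test. Among rises, HCP5, a noncoding transcript of the MHC region, had 18.6 and 17 CPM in ERb_KO and 39.4 and 92.1 CPM in ERb5 (1.88 ± 0.32, edgeR adjusted p = 0.00464), a call lost in the fit of the 4 libraries alone. CEACAM1, a cell adhesion receptor, had 6.1 and 4.48 CPM against 10.5 and 28.3 CPM (1.85 ± 0.40, edgeR adjusted p = 0.0112), a call lost without either ERb_KO library. C17orf109 had 1.97 and 0.889 CPM against 5.31 and 9.74 CPM (2.33 ± 0.44, edgeR adjusted p = 0.00664), with all 4 libraries under 10 CPM.

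Ribosomal protein, proteasome and cholesterol synthesis genes had few calls in the main comparison, where 28.2% of all genes were called. Of 48 cytosolic ribosomal protein genes 1 was higher and 3 lower (median -0.09), of 28 proteasome genes 1 was higher, and of 24 cholesterol synthesis genes 1 was higher and 2 lower. These counts moved with the libraries used: without ERb5 replicate 1, 10 proteasome genes were higher, and 4 ribosomal protein genes were higher and 8 lower. Of 19 fatty acid synthesis genes 5 were higher and 3 lower, and without ERb5 replicate 2, 2 were higher and 2 lower. Of 40 nuclear-encoded respiratory chain genes 9 were higher and none lower (median 0.21). Their median ran from 0.13 to 0.25 when each ERb5 and ERb_KO library was left out in turn. Fewer of them, and fewer of all genes, were called higher without ERb5 replicate 2 or without ERb_KO replicate 1. Of 19 NOTCH pathway genes 5 were higher, and these calls were lost with the GC trend removed, where the median moved from 0.36 to 0.06. Glycolysis and hypoxia genes had 5 of 30 higher and 3 lower, with ALDOA at 3508 and 6032 CPM in ERb_KO, a wider spread than the 5327 and 5810 CPM in ERb5. The ribosomal protein genes differed in the other comparisons, with 17 of 48 lower in ERb5 than in ERb1 (median -0.37) and 39 of 48 lower than in control (median -0.57), where 1.18% and 6.31% of all genes were lower. Their median change from control was -0.51 in ERb_KO. Against control, 1831 genes (13.2%) were called in all.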

How the data were processed

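Per the labels, total RNA of 8 libraries in 4 groups of 2 was read from 1 end over 50 bases. What the authors deposited are raw counts of reads for each gene, which are whole and sum to a different total in every library. Per the submitters' processing notes, bcl2fastq, TopHat2 2.0.8b, HTSeq and the hg19 build were used. Neither the strand setting and version of HTSeq nor the gene annotation is given in the sources used here, so overlapping antisense genes cannot be told apart. The 5 closing rows that name no gene were left out of totals and tests. Of counted reads, 52.5 to 57.1% fell in genes and 34.7 to 39.9% aligned to more than 1 place and were not counted, which leaves near-identical families uncertain.

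Genes were filtered by filterByExpr of edgeR (10 as the least count, 15 as the least total), scaled by TMM and tested with edgeR 4.0.16 (robust quasi-likelihood, R 4.3.3) over all 8 libraries in 1 fit, with Benjamini-Hochberg adjustment over 13915 genes. The common biological coefficient of variation was 0.102. SE is |log2 change| / √F. CPM of genes are TMM-scaled, and CPM of marker lists use plain totals. Of tested genes, 95.2% had a position and GC content in GENCODE v44 on GRCh37. Sequences are RefSeq's, and the first start listed for a gene was used.

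Named genes are the 10 largest rises and 10 largest falls (called, a mean of at least 5 CPM in the higher of the groups, no overlap between libraries), up to 4 called members of each list with the largest change and its 2 most abundant members, and a few set genes such as ESR2, of which the text gives a part. KIF15, IFITM1, IFIT3 and CHAC1, named for their sequence only, and marker genes fall outside that rule, and 2 genes that it names are not reported here. The 51 lists hold 1153 genes, 1061 of them tested. The comparison, lists and members were chosen with earlier results of these data known. Alternatives were other size factors, filters and a 1.5-fold minimum, the 4 libraries alone, DESeq2 1.42.0, a replicate block, removal of each library's lowess trend (span 0.3) with GC content and length, and leaving out each library; a lone library is then assumed to vary like the others. The steps were also run on simulated counts without a GC trend or an outlying library, so that run does not bear on either.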

Additional observations from a re-analysis of the deposited data

Results flagged for a closer look

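For 5 interferon-induced genes, both ERb5 libraries were above and both ERb1 libraries below the ERb_KO libraries, and the test of the difference between the isoforms passed with edgeR. The naming rule had required that the ERb5 and ERb_KO libraries of these genes not overlap. It had also picked them for large rises in ERb5, whose libraries enter the difference, so the difference may be overstated. The log2 difference between the changes in ERb5 and in ERb1 was 3.91 for IFI27 (2.30 in ERb5 against -1.61 in ERb1), 3.61 for OASL (1.92 against -1.69), 3.91 for BATF2 (1.92 in ERb5, while it fell by 2.00 in ERb1), 4.41 for RTP4 (1.86 against -2.55) and 5.47 for RSAD2 (1.82 against -3.65), with edgeR adjusted p-values from 0.000392 to 0.00251. Both changes use the ERb_KO libraries, which cancel in the difference. With 2 libraries a group, a single outlying library could not be tested for.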

How the results depend on the processing

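Of the 195 named genes that were called, 38 were called under every alternative, 89 with these included under every one except the minimum change of 1.5-fold, 57 lost their call with the GC trend removed, and 3 called genes changed sign. Fits without a control or ERb1 library were not counted among these alternatives. The main count of 3922 changed genes (2039 higher, 1883 lower, 547 at least 2-fold) became 160 (33, 127 and 158) against a minimum of 1.5-fold, and 2519 (1234 higher, 355 at least 2-fold) with the GC and length trend removed. The 4 libraries alone gave 1274 higher genes. The replicate block gave 3929 changed genes, and with the GC trend removed as well 2646 (1265 higher, 332 at least 2-fold). Replicate numbers came from the titles only, and deviations of same-numbered ERb_KO and ERb5 libraries correlated at 0.138, with r from -0.12 to 0.139 over all pairs of groups, so the numbers were not taken as pairs. Leaving out each ERb5 and ERb_KO library in turn gave 1674 to 4378 changed genes (820 to 2311 higher, 763 to 2067 lower, 336 to 799 at least 2-fold). ERb5 against ERb1 had 649 changed genes, 1095 with the GC trend removed and 125 to 1389 without each library. ERb5 against control had 1831, 2817 with the GC trend removed and 587 to 2143 without each library. The cause of these shifts was not tested beyond the fewer libraries or the higher bar that each setting brings. With the GC trend removed, and then also with the replicate block, log2 changes turned negative for BOK (-0.0052 and -0.0059, from 0.49), LRP5 (-0.018 and -0.0179, from 0.37), HSF1 (-0.0272 and -0.0271, from 0.42) and RPL8 (-0.438 and -0.440, from 0.00). Size factors, other filters and DESeq2 (3999 changed genes) moved the main count by less than 1.5 times. With 2 libraries a group, small changes can go undetected at this depth, and genes near 1 CPM such as ESR2 rest on few reads.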
